A study of Mus musculus with 12 samples.

Results

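The genes described here were higher in Th2 cells than in both cultures made with TGF-β, Th9 and Treg. They are 88 of the 27745 gene names on a 1-colour mouse array, with 1 probe taken per name. A gene entered when its mean over the Th2 arrays was at least 6 in the deposited log2 table, with values under 4 set to 4, and at least 1.5 above both the Th9 mean and the Treg mean. These thresholds were met by 96 gene names, of which 8 were set aside by name. The members carry 87 current gene symbols or probe names, because Zfp608 is read by 2 probes, and a probe with no symbol is described in the scanner files as Slc16a10, itself a member. Of the 88, 77 could be named through a RefSeq accession or symbol. The members were chosen by the deposited values of the Th2, Th9 and Treg arrays, so their order against Th2 is a description and carries no test. Arrays of stimulated Th9 cells played no part in the choice.

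The 4 cultures of naive CD4+CD62L+ T cells came from spleen and lymph nodes, the strain was C57BL/6, and each culture was measured on 3 arrays after 5 days. All were started with plate-bound anti-CD3 and soluble anti-CD28. Stimulated Th9 cells were Th9 cultures given anti-CD3 at 1 µg/ml for 6 h on day 5. Th9 cultures received IL-4, TGF-β at 2 ng/ml and anti-IFN-γ, with IL-4 and TGF-β added again at expansion. Treg cultures received TGF-β and anti-IL-4, with IL-2 at expansion. Th2 cultures received IL-4 and anti-IFN-γ. Th9 and Th2 cultures therefore differed by TGF-β and by what was added at expansion, which the labels do not state for Th2. Treg and Th2 cultures differed further by IL-4, its antibody, anti-IFN-γ and IL-2, so lower levels in Treg cells cannot be assigned to TGF-β. The labels do not say if arrays of one group stem from different cultures or mice, and p-values therefore cover only the spread among these samples, technical spread included.

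Interleukin-4 acts through its receptor to phosphorylate STAT6, which raises GATA3, the transcription factor that commits helper T cells to the Th2 fate. TGF-β acts through receptor kinases that phosphorylate SMAD2 and SMAD3. Together with IL-4 it directs T cells to make IL-9, and without IL-4 it raises Foxp3, the transcription factor of regulatory T cells. The T cell receptor, engaged by anti-CD3, signals through calcium and NFAT and through the ERK pathway and AP-1.

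Promoters of 5 members are shown because these genes were among those that changed most after anti-CD3 or carry a motif named below. Csf2, Mmp10, Ajuba and Nts rose and Ltb4r1 fell. Each sequence is the 250 bases before the RefSeq start in build GRCm38.p6, written 5′ to 3′ on the gene's strand, with matches to the searched motifs in capitals.
Csf2 (chr11:54249900-54250149, minus strand): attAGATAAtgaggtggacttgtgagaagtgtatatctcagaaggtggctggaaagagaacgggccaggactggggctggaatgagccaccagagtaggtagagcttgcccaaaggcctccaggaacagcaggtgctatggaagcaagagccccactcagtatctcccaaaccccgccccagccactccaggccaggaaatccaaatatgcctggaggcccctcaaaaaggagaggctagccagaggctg
Mmp10 (chr9:7502092-7502341, plus strand): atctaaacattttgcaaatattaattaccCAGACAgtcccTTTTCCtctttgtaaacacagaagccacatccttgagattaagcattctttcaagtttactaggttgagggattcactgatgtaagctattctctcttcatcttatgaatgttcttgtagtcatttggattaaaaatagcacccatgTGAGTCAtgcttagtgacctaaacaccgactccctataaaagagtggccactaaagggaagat
Ajuba (chr14:54577662-54577911, minus strand): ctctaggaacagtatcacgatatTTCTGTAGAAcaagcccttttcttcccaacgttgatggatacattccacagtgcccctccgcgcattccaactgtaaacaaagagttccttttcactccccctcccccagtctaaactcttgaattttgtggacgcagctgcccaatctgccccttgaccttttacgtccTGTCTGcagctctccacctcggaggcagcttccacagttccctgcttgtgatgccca
Nts (chr10:102490419-102490668, minus strand): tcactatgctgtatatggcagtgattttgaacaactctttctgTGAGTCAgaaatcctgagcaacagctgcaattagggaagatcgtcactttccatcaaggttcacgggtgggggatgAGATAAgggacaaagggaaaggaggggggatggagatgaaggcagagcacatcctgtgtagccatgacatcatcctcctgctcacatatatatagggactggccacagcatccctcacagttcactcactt
Ltb4r1 (chr14:55765712-55765961, plus strand): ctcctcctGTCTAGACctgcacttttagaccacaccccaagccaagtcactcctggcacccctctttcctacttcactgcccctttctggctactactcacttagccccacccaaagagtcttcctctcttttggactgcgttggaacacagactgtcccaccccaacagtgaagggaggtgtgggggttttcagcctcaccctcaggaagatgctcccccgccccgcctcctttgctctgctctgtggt
The capitals mark the GATA motif AGATAA in Csf2. In Mmp10 they mark the SMAD motif CAGACA, the NFAT motif GGAAAA on the other strand, and the AP-1 motif TGANTCA. In Ajuba they mark the STAT6 motif, TTC and GAA with any 4 bases between, and CAGACA on the other strand. In Nts they mark the AP-1 and GATA motifs, and in Ltb4r1 the SMAD palindrome GTCTAGAC. RefSeq windows of 300 bases, from 250 before to 50 after a start, were matched by symbol for 57 of the members' symbols, which gave 72 windows. Both strands were searched, and no motif contains another. The STAT6 motif lay in 5.56% of the members' windows, against 6.95% of all 32851 windows. AGATAA lay in 5.56% against 11.2%, and AGATAG in 9.72% against 8.95%. CAGACA was found in 22.2% against 21%, TGANTCA in 12.5% against 7.81% and GGAAAA in 18.1% against 23.4%. GTCTAGAC was found in 1.39% against 0.213%, and its share among the members rests on 1 window, that of Ltb4r1. A match describes letters and is not a binding site.

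Each array had 24634 to 26208 of 41174 probes well above background in the scanner's call, and arrays of a group correlated at 0.988 to 0.995 over genes. Levels below are log2 signal relative to the 75th percentile of the array. The first of 3 slides held the 3 Th2 arrays and Treg 1, the second Treg 2 and 3 with stimulated Th9 1 and 2, and the third the 3 Th9 arrays with stimulated Th9 3. No slide held both Th9 and Th2 cells or both Th9 and Treg cells. Gata3 was well above background in all 4 groups, Il9 in neither Treg nor Th2 cells, and Foxp3 not in Th2 cells. Markers of other lymphocytes were present and uneven. Cd8a, a gene of cytotoxic T cells, had levels of 2.47, 2.29 and -2.23 in stimulated Th9 cells, 2.16 to 2.71 in Th9 cells, 1.22 to 1.72 in Treg cells and 0.52 to 0.98 in Th2 cells. The summed level of 10 B cell markers was 2.10 to 3.81 in stimulated Th9 cells, 5.08 to 5.31 in Th9 cells, 8.24 to 8.48 in Treg cells and 4.51 to 4.75 in Th2 cells. Stimulated array 3 lay more than 1 log2 unit above the mean of arrays 1 and 2 for 19 members and more than 1 below it for 7.

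In Th2 cells all 88 probes were well above background on all 3 arrays. The same held for 77 probes in stimulated Th9 cells, 79 in Th9 cells and 56 in Treg cells. On none of the 3 arrays was the probe well above background for 6 members in stimulated Th9 cells, 1 in Th9 cells and 22 in Treg cells. The genes were thus lower but detectable in most Th9 arrays, and undetected in Treg cells more often than in Th9 cells. Deposited log2 levels had medians over the members of 6.38 in Th9 cells, 4.73 in Treg cells and 8.63 in Th2 cells. The highest member means were 13.01 in Th9 cells and 11.55 in Treg cells, so some members were lower there without being low. The median difference was -2.04 for Th9 minus Th2, with a range of -3.66 to -1.51, and -2.89 for Treg minus Th2, with a range of -9.83 to -1.51. Fewer cells expressing a gene and less RNA per cell cannot be told apart in these bulk samples. Nearest inside the threshold lay the second probe of Zfp608, Nupr1 and Ltb4r1, whose smaller difference from Th2 was 1.509, 1.513 and 1.525. Nearest outside it lay Esrp2, Tmem159 and Cobll1 at 1.498, 1.494 and 1.469.

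**Figure D1:**
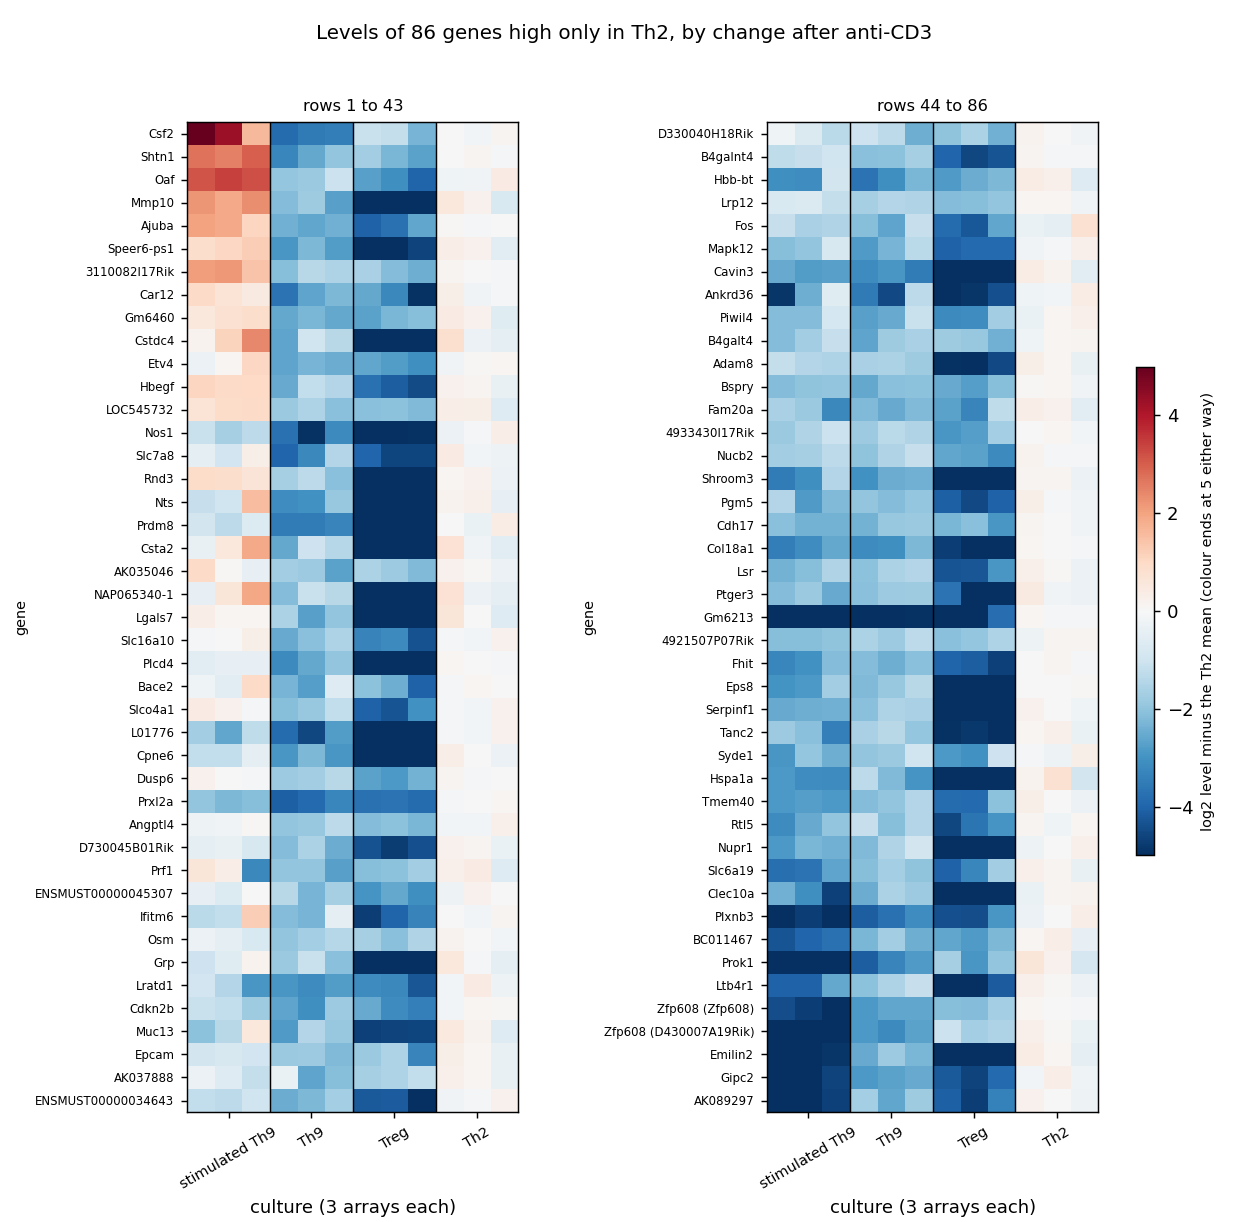
Levels of 86 members on the 12 arrays, as log2 level minus the mean of the Th2 arrays (blue below, red above, colour ends at 5 either way), with genes in order of their change after anti-CD3. Upper rows of the left panel turn red in stimulated Th9 cells and the last rows of the right panel turn dark blue there, while Treg cells hold the darkest columns in many rows.

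Other probes that were bright enough mostly gave the same order. Another probe existed for 31 members. For 22 of them it was well above background on at least 3 arrays, 30 probes in all. Of these 30 probes, 29 were below Th2 in both Th9 and Treg cells on the scanner values, and 26 were lower by at least 1 log2 unit in both. A probe could pass through its 3 Th2 arrays alone, so the filter itself favours a gap. Dimmer probes were not counted. Treg 1 lay below the Th2 mean for all 88 members on the slide they shared, with a median difference of -3.98. The rule used these same arrays, so this order was largely set by the choice of members. Th9 could be set against Th2 across slides only. The link runs through 2 single arrays, Treg 1 from the first slide to the second and stimulated array 3 from the second to the third. With the slide as a block, Th9 minus Th2 was below 0 for 82 of the 88 members, and its median was -2.43, against -2.06 without the block. Here too the rule used the Th9 and Th2 arrays, so most of these signs were set by the choice. The sign turned for Csf2 (0.06), Rnd3 (0.60), Clec10a (0.40), Ptger3 (0.10), Tanc2 (0.17) and Prf1 (1.24).

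The members with the widest margin below Th2 in both cultures were of varied function. Prxl2a, an antioxidant protein of the peroxiredoxin-like family, had levels of 1.54, 1.75 and 2.40 in Th9 cells, 1.93, 1.97 and 1.79 in Treg cells and 5.55, 5.63 and 5.75 in Th2 cells. Levels of Nos1, neuronal nitric oxide synthase, whose probe is listed under the older name 2310005C01Rik, were -5.04, -6.24 and -4.49 in Th9 cells, -6.76, -8.14 and -6.25 in Treg cells and -1.59, -1.34 and -0.96 in Th2 cells. Both were lower in each Th9 and Treg array than in any Th2 array, as the rule made likely. Cavin3, a coat protein of caveolae, had -3.17, -2.92 and -3.52 in Th9 cells, -6.93, -7.98 and -7.08 in Treg cells and 0.36, 0.14 and -0.58 in Th2 cells. For Col18a1, the collagen chain that yields endostatin, the levels were -2.39, -2.29 and -1.46 in Th9 cells, -3.92, -4.31 and -4.53 in Treg cells and 0.89, 0.76 and 0.68 in Th2 cells. These 2 genes of membrane and matrix were lower in Treg than in Th9 cells on every array.

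Anti-CD3 moved the members in both directions, and more of them up than down. Against Th9 cells, 43 of the 88 members were higher in stimulated Th9 cells (48.9%, against 33.2% of all genes tested), 14 were lower (15.9%, against 30.7%) and 31 were not called. A call is an adjusted p below 0.05 in limma over the 17923 genes whose probe was well above background on at least 3 arrays, and all 88 members were among them. The median difference was 0.98 over the members and 0.02 over all genes tested. The Th9 mean had to lie below the Th2 mean for a gene to be chosen, so the choice itself favours an increase. At 2-fold or more, 40 members were higher (17.8% of all genes) and 11 lower (16.7%). With the slide as a block the difference is that of stimulated array 3 from the Th9 arrays on the third slide, so it rests on 1 stimulated array, which is assumed to vary like the others. That fit called 43 higher, 38 of them among the first 43, and 9 lower, 8 of them among the 14, and its differences had the called direction for all 43 and all 14. Among these called members, arrays of the groups did not overlap for 42 of the 43 and 13 of the 14, which a call makes likely. Over all genes tested, called or not, 35.5% and 33% did not overlap in those directions, a share with another base.

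Whether anti-CD3 brought the genes back to the Th2 level is described as the share of the log2 gap between Th9 and Th2 that stimulated cells had closed. At least 50% of the gap was closed for 41 members (46.6%), of which 36 were called higher, and at least 100% for 23. Another 20 members closed 0 to 50%, and 27 had a share below 0%. Not all of these 27 fell by a called amount, since only 14 members in all were called lower. Some hardly moved, such as Nucb2 at -1.6%. The median was 43.2%. Among 43 other genes that met the level and the difference from Th9 but not the difference from Treg, 17 closed at least 50% (39.5%), and the median was 28.1%. By arrays, all 3 stimulated arrays reached the lowest Th2 array for 20 members, and none did for 55. No test was made of these shares, since the rule used both ends of the gap.

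**Figure D2:**
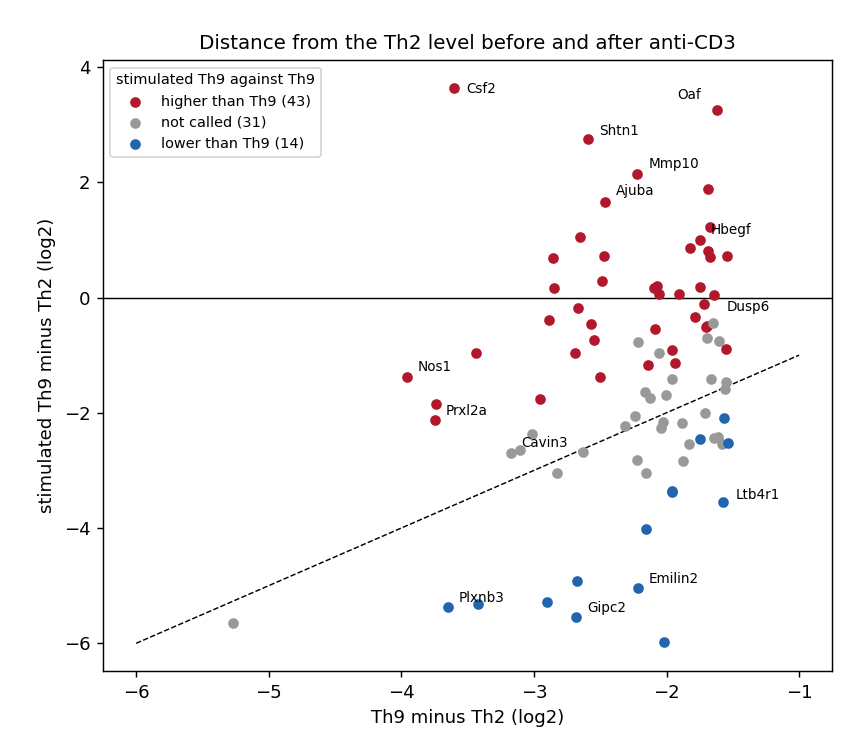
Difference of stimulated Th9 from Th2 (vertical axis, log2) against that of Th9 from Th2 (horizontal axis, log2), 1 point per member, coloured by the limma call of stimulated Th9 against Th9. Points on the solid line reached the Th2 level, points on the dashed line did not move, and the 43 higher, 14 lower and 31 uncalled members spread from Csf2 far above the line to Gipc2 far below it.

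The members are described by role below. Roles were assigned with the values known and hold 3 to 12 named members each, so their counts describe these genes and no more. Of 8 secreted ligands and peptides, 6 were higher after anti-CD3 (75%, against 48.9% of all members and 33.2% of all genes), 1 was lower and 1 was not called, with a median of 1.40, and 6 closed at least 50% of the gap. Csf2, which encodes GM-CSF, a growth factor for granulocytes and macrophages, had levels of 4.05, 3.33 and 0.65 in stimulated Th9 cells, against -4.81, -4.48 and -4.40 in Th9 cells. In the other cultures it had -2.08, -2.13 and -3.28 in Treg cells and -0.95, -1.10 and -0.82 in Th2 cells. Th9 cells thus held the lowest levels of all, every stimulated array stood above every Th2 array, and stimulated array 3 was far below the other 2. The difference was 7.24 ± 0.69 (SE, adjusted p = 5.15e-06), and 5.21 within the third slide. Cd8a was low on the same array, as were Gzmb (7.35, 7.20 and 5.00 in stimulated Th9 cells, against 5.67 to 5.70 in Th9 cells) and Ifng (8.39, 8.12 and 4.56, against -0.27 to 0.45). Of 7 CD8 T cell and NK cell markers, 4 were well above background on all 3 arrays in stimulated Th9 cells, 6 in Th9 cells, 4 in Treg cells and 6 in Th2 cells. Their summed level was 1.55 to 4.08 in stimulated Th9 cells, 4.54 to 4.93 in Th9 cells, 4.56 to 5.45 in Treg cells and 3.91 to 4.29 in Th2 cells, and Ncr1 was well above background in none. The part of such cells in the Csf2 values was not tested.

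Hbegf, an EGF receptor ligand that is shed from the cell surface, had levels of 2.07, 1.98 and 2.01 in stimulated Th9 cells, against -1.51, -0.22 and -0.46 in Th9 cells. Treg and Th2 arrays gave -2.70, -3.09 and -3.47 in Treg cells and 1.24, 1.17 and 0.64 in Th2 cells. Its rise of 2.75 ± 0.31 (SE, adjusted p = 1.82e-05) carried all 3 stimulated arrays past the Th2 arrays. Osm, oncostatin M, a cytokine of the IL-6 family, had 1.66, 1.48 and 1.21 in stimulated Th9 cells, against -0.02, 0.27 and 0.53 in Th9 cells, with 0.29, -0.13 and 0.44 in Treg cells and 2.12, 1.92 and 1.84 in Th2 cells. It rose by 1.19 ± 0.19 (SE, adjusted p = 0.000216) but stayed below every Th2 array, with 70.2% of the gap closed. Angptl4, a secreted inhibitor of lipoprotein lipase, rose by 1.60 ± 0.18 (SE, adjusted p = 2.05e-05) and closed 93.3% of it.

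Neuropeptide precursors were among the ligands. Nts, the precursor of neurotensin, had levels of -0.17, -0.01 and 2.52 in stimulated Th9 cells, against -2.12, -2.04 and -0.93 in Th9 cells. In the other cultures they were -7.16, -7.00 and -7.09 in Treg cells and 1.16, 1.21 and 0.55 in Th2 cells. Stimulated array 3 stood above all Th2 arrays and arrays 1 and 2 below them. The difference of 2.48 ± 0.61 (SE, adjusted p = 0.00413) was 1.61 (adjusted p = 0.00192) without that array and 4.22 under the slide block. Grp, gastrin-releasing peptide, had -3.07, -2.64 and -1.85 in stimulated Th9 cells, against -3.89, -3.14 and -4.09 in Th9 cells, a difference of 1.19 ± 0.40 (SE, adjusted p = 0.0222). Its call was lost without stimulated array 3 (0.86, adjusted p = 0.0881), Th9 array 1 (1.10, 0.066) or Th9 array 3 (1.00, 0.079), and the slide block gave 1.85 (0.0173). Prok1, prokineticin 1, which acts on endothelial and smooth muscle cells, went the other way, with -8.09, -8.00 and -8.19 in stimulated Th9 cells, against -6.91, -6.07 and -5.63 in Th9 cells, and was well above background on no stimulated array (adjusted p = 0.00266). With the normexp background correction this difference was 0.02 (adjusted p = 0.922). A second probe of Prok1, well above background on all 12 arrays, differed by only -0.21 after anti-CD3. It gave -0.32 for Th9 minus Th2 and -0.16 for Treg minus Th2, so it did not show the gap of the chosen probe. Nucb2, the precursor of nesfatin, had a difference of -0.02 ± 0.23 (SE, adjusted p = 0.932).

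Of 8 receptors, 3 were higher, 3 lower and 2 not called. Each direction held 37.5%, near the 33.2% higher and 30.7% lower of all genes, so these counts do not set receptors apart. The median was -0.29, and 1 closed at least 50% of the gap. Ltb4r1, the high-affinity leukotriene B4 receptor that guides leukocytes, had -0.33, -0.36 and 1.12 in stimulated Th9 cells, against 1.66, 2.15 and 2.55 in Th9 cells. Its levels in the other cultures were -3.21, -3.22 and -0.45 in Treg cells and 3.94, 3.76 and 3.38 in Th2 cells, so that a gene already below Th2 in Th9 cells fell further after anti-CD3, with a difference of -1.98 ± 0.67 (SE, adjusted p = 0.0243). This call was lost without stimulated array 1 or 2 (adjusted p = 0.078 and 0.0793), without Th9 array 2 or 3 (0.0561 and 0.0753), and under the slide block (-0.999, adjusted p = 0.354).

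Ptger3, a prostaglandin E2 receptor that couples to Gi, had levels of -5.14, -4.83 and -5.50 in stimulated Th9 cells, -5.06, -4.78 and -4.75 in Th9 cells, -6.66, -7.98 and -8.28 in Treg cells and -2.51, -3.17 and -3.25 in Th2 cells. Stimulated and unstimulated Th9 arrays overlapped, and the difference was -0.29 ± 0.37 (SE, adjusted p = 0.514). Plxnb3, a plexin that binds semaphorin 5A, had -7.83, -6.22 and -6.64 in stimulated Th9 cells, against -5.66, -5.24 and -4.63 in Th9 cells, and was well above background on no stimulated array, which makes it at least 1.66-fold lower (adjusted p = 0.00946). Its call was lost under the slide block (-1.46, adjusted p = 0.122). Lrp12, of the LDL receptor family, rose by 0.65 ± 0.14 (SE, adjusted p = 0.00203), a call that the slide block also ended (0.35, adjusted p = 0.102). Clec10a, a galactose-binding lectin best known on macrophages and dendritic cells, had -5.00, -5.65 and -7.26 in stimulated Th9 cells, against -5.06, -4.16 and -4.42 in Th9 cells. Its difference of -1.42 ± 0.48 (SE, adjusted p = 0.0219) was -0.78 without stimulated array 3, became -2.71 with the slide block, and lost its call without Th9 array 2 or 3 (adjusted p = 0.0754 and 0.0577) or with only the 6 arrays compared (0.0702). The summed level of 12 myeloid and dendritic cell markers was 0.29 to 0.52 in stimulated Th9 cells, 1.31 to 1.76 in Th9 cells, 0.80 to 1.77 in Treg cells and 1.47 to 1.81 in Th2 cells. Of them, 8, 8, 10 and 8 were well above background on all 3 arrays in those groups, Lyz2 and Itgam only in Treg cells, and Siglech in none. Of 10 tested, 2 were higher and 3 lower after anti-CD3 (33.2% and 30.7% of all genes). In Th9 minus Treg 3 of the 10 were higher and 6 lower (28.9% and 35.4% of all genes). Adgre1 had means of -0.98 in stimulated Th9, 0.83 in Th9, -2.04 in Treg and 1.10 in Th2 cells. Csf1r had -5.02, -3.28, -3.45 and -3.21 in the same order. Their part in the Clec10a values was not tested.

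**Figure D3:**
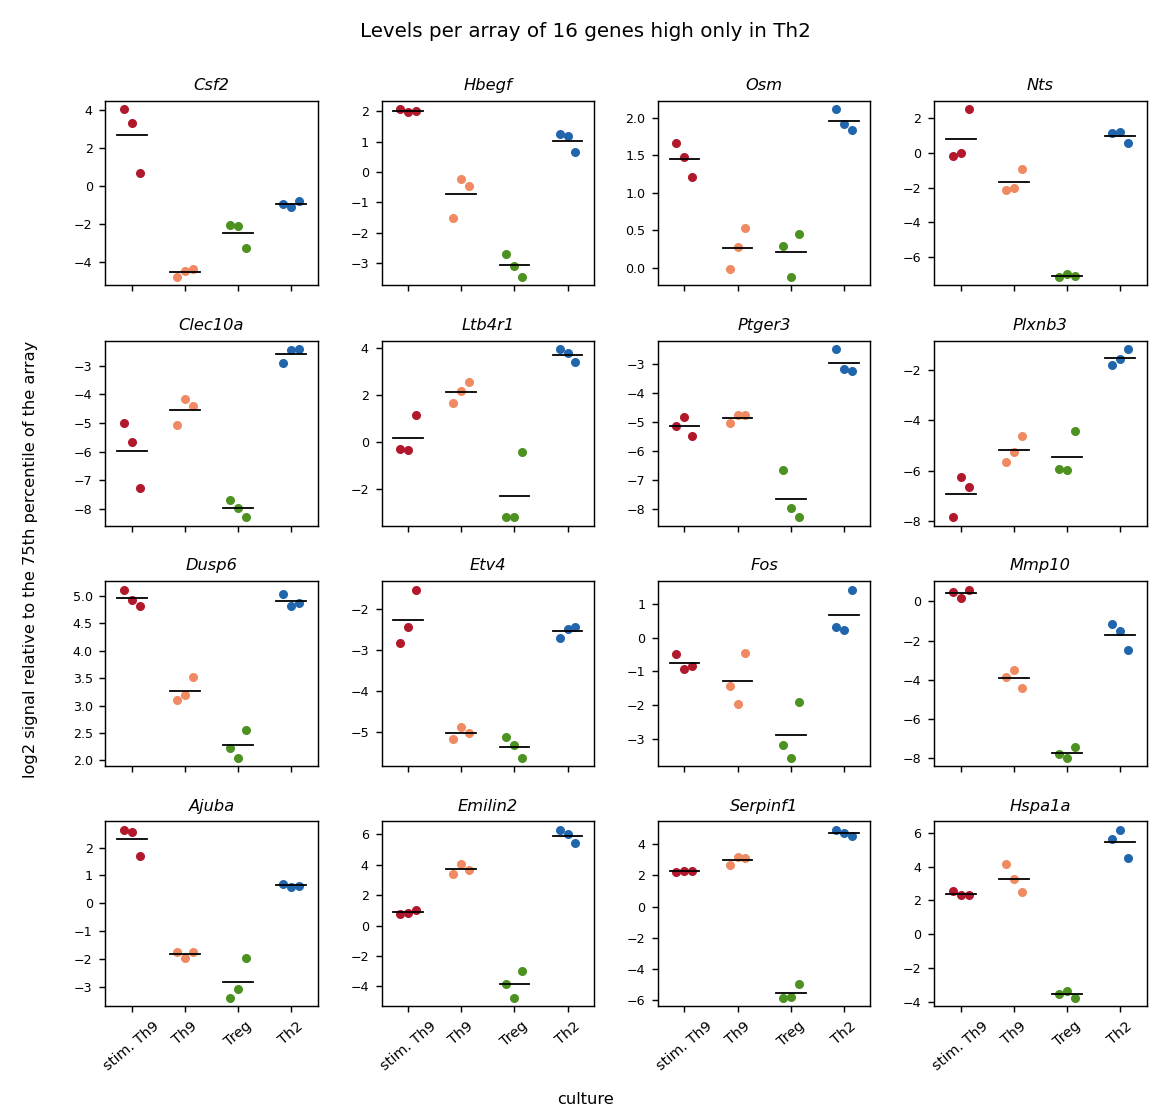
Levels of 16 members on each array (points, log2 signal relative to the 75th percentile of the array) with the group mean (line), for stimulated Th9, Th9, Treg and Th2 cells from left to right. Csf2, Hbegf, Mmp10 and Ajuba stand above Th2 after anti-CD3, Ltb4r1 and Emilin2 fall further below it, and Serpinf1 and Hspa1a separate Th9 from Treg cells.

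Among 10 probes of signalling and transcription genes, 5 were higher (50%, against 33.2% of all genes). Another 3 were lower (30%, near the 30.7% of all genes) and 2 were not called. The median was 0.83, and Zfp608 counts by 2 of the 10. Dusp6, the phosphatase that inactivates ERK and is itself induced by ERK signalling, had levels of 5.12, 4.93 and 4.82 in stimulated Th9 cells, against 3.10, 3.19 and 3.51 in Th9 cells. It had 2.23, 2.05 and 2.56 in Treg cells and 5.04, 4.82 and 4.88 in Th2 cells, so the stimulated and Th2 arrays overlapped and the rise of 1.69 ± 0.16 (SE, adjusted p = 4.03e-06) closed 103% of the gap. Etv4, an ETS factor of the PEA3 group, had -2.82, -2.43 and -1.52 in stimulated Th9 cells, against -5.19, -4.88 and -5.02 in Th9 cells. Treg and Th2 arrays gave -5.13, -5.32 and -5.63 in Treg cells and -2.71, -2.49 and -2.43 in Th2 cells. It rose by 2.77 ± 0.27 (SE, adjusted p = 6.57e-06) and closed 112% of the gap.

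Fos, the immediate-early AP-1 subunit, did not follow Dusp6. Its levels were -0.48, -0.94 and -0.84 in stimulated Th9 cells, against -1.44, -1.96 and -0.47 in Th9 cells, and -3.19, -3.57 and -1.92 in Treg cells and 0.33, 0.23 and 1.44 in Th2 cells. Groups overlapped, and the difference was 0.54 ± 0.49 (SE, adjusted p = 0.357) at 6 h. Prdm8, a transcriptional repressor of the PRDM family, rose by 2.47 ± 0.19 (SE, adjusted p = 1.09e-06), and Plcd4, a phospholipase C, by 2.12 ± 0.23 (SE, adjusted p = 1.58e-05). Cdkn2b, the CDK4 and CDK6 inhibitor p15, which TGF-β induces in epithelial cells, rose by 1.12 ± 0.32 (SE, adjusted p = 0.00909), a call the slide block ended (0.72, adjusted p = 0.151).

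Zfp608, a zinc finger protein, fell by both probes. The probe listed under its own name had levels of -4.73, -5.03 and -5.92 in stimulated Th9 cells, against -3.17, -2.90 and -2.90 in Th9 cells, and -2.46, -2.49 and -2.03 in Treg cells and -0.20, -0.34 and -0.39 in Th2 cells, with a difference of -2.23 ± 0.26 (SE, adjusted p = 2.16e-05). The second probe, Zfp608 (D430007A19Rik), was well above background on no stimulated array and was at least 1.15-fold lower (adjusted p = 1.93e-06). Nupr1, a stress-induced chromatin protein, had 0.58, 1.17 and 1.04 in stimulated Th9 cells, against 1.26, 1.96 and 2.55 in Th9 cells, and fell by 1.00 ± 0.34 on the log2 scale (SE, adjusted p = 0.0251). This call was lost without stimulated array 1 (adjusted p = 0.0901), Th9 array 2 (0.06) or Th9 array 3 (0.102), and under the slide block (-0.88, 0.199).

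Of 12 matrix, adhesion and cytoskeleton genes, 5 were higher (41.7%, against 33.2% of all genes), 1 was lower and 6 were not called. The median was 0.77. Ajuba, a LIM protein of cell junctions and the Hippo pathway, had levels of 2.64, 2.55 and 1.72 in stimulated Th9 cells, against -1.75, -1.96 and -1.75 in Th9 cells. Its other levels were -3.39, -3.08 and -1.97 in Treg cells and 0.70, 0.59 and 0.64 in Th2 cells. All stimulated arrays stood above all Th2 arrays, and the rise was 4.12 ± 0.33 (SE, adjusted p = 1.61e-06). Shtn1, shootin 1, which links actin flow to adhesion in growing axons, had 1.67, 1.47 and 1.95 in stimulated Th9 cells, against -4.30, -3.62 and -3.01 in Th9 cells, with -2.78, -3.34 and -3.73 in Treg cells and -1.08, -0.93 and -1.15 in Th2 cells. It rose by 5.34 ± 0.31 (SE, adjusted p = 2.09e-07) and closed 206% of the gap. Rnd3, an atypical small GTPase that loosens actin fibres, rose by 2.50 ± 0.50 (SE, adjusted p = 0.00121) and reached the Th2 level, with 148% of the gap closed.

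Emilin2, an elastic fibre glycoprotein, went furthest down in this group. It had levels of 0.74, 0.82 and 1.03 in stimulated Th9 cells, against 3.37, 4.07 and 3.62 in Th9 cells, while Treg and Th2 arrays gave -3.85, -4.75 and -3.01 in Treg cells and 6.29, 6.02 and 5.41 in Th2 cells. The 3 stimulated arrays lay between Th9 and Treg cells, and the difference was -2.83 ± 0.38 (SE, adjusted p = 6.75e-05). Epcam, a homotypic epithelial adhesion protein, rose by 1.05 ± 0.37 (SE, adjusted p = 0.0278). Its call was lost without any 1 of the 3 stimulated arrays (adjusted p = 0.0587, 0.0692 and 0.051), without Th9 array 1 or 3 (0.051 and 0.0836), and under the slide block (0.98, 0.17). Cavin3, Col18a1, the mucin Muc13 and the actin regulator Eps8 were not called, with differences of 0.48, -0.22, 1.09 and -0.71. Muc13 was called higher under the slide block (2.59, adjusted p = 0.00445) or without stimulated array 1 (1.63, 0.03). Eps8 was called lower without stimulated array 3 (-1.10, adjusted p = 0.00224) or Th9 array 1 (-0.90, 0.0466), while the slide block turned its difference to 0.08.

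Among proteases and their inhibitors, 4 of 6 rose (66.7%, against 33.2% of all genes), 1 fell and 1 was not called. The median was 2.17. Mmp10, stromelysin 2, which degrades matrix proteins, had levels of 0.48, 0.18 and 0.61 in stimulated Th9 cells, against -3.89, -3.52 and -4.42 in Th9 cells. It had -7.83, -8.00 and -7.44 in Treg cells and -1.18, -1.51 and -2.47 in Th2 cells. Stimulated arrays stood above all Th2 arrays, and the rise was 4.37 ± 0.33 (SE, adjusted p = 8.88e-07). Csta2 and Cstdc4 are neighbouring stefin genes on chromosome 16 with 1 protein-coding gene between them. Stefins inhibit cysteine cathepsins, and members of this family share sequence, so their probes may read each other. Csta2 had 3.15, 4.05 and 5.42 in stimulated Th9 cells, against 0.96, 2.46 and 2.09 in Th9 cells, and Cstdc4 had 1.57, 2.49 and 3.79 in stimulated Th9 cells, against -1.25, 0.40 and 0.00 in Th9 cells. Array by array they ran in parallel, with rises of 2.37 ± 0.56 (SE, adjusted p = 0.0035) and 2.90 ± 0.62 (SE, adjusted p = 0.00176). The slide block gave 3.59 for Csta2. Bace2, a membrane aspartyl protease, rose by 1.98 ± 0.62 (SE, adjusted p = 0.0158), a call lost without stimulated array 3 (1.54, adjusted p = 0.0636), Th9 array 1 (1.76, 0.0558) or Th9 array 2 (1.56, 0.0656). Serpinf1, pigment epithelium-derived factor, a serpin that does not inhibit proteases, had 2.21, 2.28 and 2.31 in stimulated Th9 cells, against 2.65, 3.17 and 3.11 in Th9 cells, a difference of -0.71 ± 0.24 (SE, adjusted p = 0.0209). That call was lost without stimulated array 1 (adjusted p = 0.056), Th9 array 2 (0.0739) or Th9 array 3 (0.0646), and under the slide block (-0.67, 0.13). Adam8, a metalloprotease that cleaves surface proteins, had a difference of 0.26 ± 0.20 (SE, adjusted p = 0.29).

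Of 6 probes of transporters and channels, 5 were higher (83.3%, against 33.2% of all genes) and 1 lower, with a median of 1.91. Slc16a10 counts by its own probe and by the one that only the description assigns to it. Slc7a8, the neutral amino acid exchanger LAT2, had levels of -1.56, -2.03 and -0.78 in stimulated Th9 cells, against -5.02, -4.30 and -2.55 in Th9 cells. Its other levels were -5.03, -5.68 and -5.65 in Treg cells and -0.67, -1.20 and -1.35 in Th2 cells, and it rose by 2.50 ± 0.54 (SE, adjusted p = 0.00191). Slc16a10, a carrier of aromatic amino acids, rose by 2.12 ± 0.31 (SE, adjusted p = 0.000128) on its named probe, and Slco4a1, an organic anion and thyroid hormone transporter, by 1.93 ± 0.32 (SE, adjusted p = 0.000322). Slc6a19, the amino acid transporter of gut and kidney epithelium, had -6.18, -6.12 and -5.05 in stimulated Th9 cells, against -4.56, -4.14 and -4.44 in Th9 cells, a difference of -1.41 ± 0.50 (SE, adjusted p = 0.0292). Its call was lost without stimulated array 1 or 2 (adjusted p = 0.0939 and 0.0891), without any 1 of the 3 Th9 arrays (0.05, 0.0823 and 0.0576), with normexp (-0.12, 0.483) and under the slide block (-0.67, 0.289).

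Of 6 enzymes, 4 rose (66.7%, against 33.2% of all genes) and 2 were not called, with a median of 1.21. Car12, a membrane carbonic anhydrase that faces the outside of the cell, had levels of 1.05, 0.76 and 0.55 in stimulated Th9 cells, against -3.58, -2.54 and -2.17 in Th9 cells. With -2.47, -3.12 and -4.83 in Treg cells and 0.39, -0.09 and -0.01 in Th2 cells, its stimulated arrays stood above the Th2 arrays, a rise of 3.55 ± 0.53 (SE, adjusted p = 0.00014) that closed 124% of the gap. Nos1 rose by 2.58 ± 0.50 (SE, adjusted p = 0.000901) and closed 64.4%, and Prxl2a rose by 1.62 ± 0.19 (SE, adjusted p = 2.19e-05) and closed 43.3%. Both remained below every Th2 array. B4galnt4, a glycosyltransferase, rose by 0.79 ± 0.17 (SE, adjusted p = 0.00151).

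The 3 stress and effector genes were not called. Prf1, perforin, the pore-forming protein of cytotoxic cells, had levels of 1.54, 1.29 and -2.28 in stimulated Th9 cells, against -1.01, -1.02 and -1.76 in Th9 cells, with -1.18, -1.09 and -0.77 in Treg cells and 1.21, 1.36 and 0.29 in Th2 cells. Stimulated arrays 1 and 2 reached the Th2 arrays and array 3 was the lowest of all 12. The difference was 1.45 ± 0.81 (SE, adjusted p = 0.142) with all arrays and 2.68 (adjusted p = 6.37e-05) without stimulated array 3, the array on which Cd8a, Gzmb and Ifng were also low. The part of CD8 T cells in this was not tested. Hspa1a, the inducible heat shock protein 70, had 2.57, 2.32 and 2.31 in stimulated Th9 cells, against 4.13, 3.24 and 2.49 in Th9 cells, a difference of -0.89 ± 0.43 (SE, adjusted p = 0.0978). It was called lower without Th9 array 3 (-1.28, adjusted p = 0.0235) and with quantile normalization (-1.11, 0.0407), and its near-identical copy Hspa1b may share its probe. Hbb-bt, a β-globin gene, had -2.00, -2.02 and 0.15 in stimulated Th9 cells, -2.61, -2.00 and -1.20 in Th9 cells, -1.75, -1.42 and -1.16 in Treg cells and 1.46, 1.35 and 0.42 in Th2 cells. Its difference was 0.65 ± 0.57 (SE, adjusted p = 0.339), and the slide block gave 2.09 (adjusted p = 0.00997). The summed level of 9 erythroid and megakaryocyte markers, which include Hbb-bt, was -1.02 to 0.47 in stimulated Th9 cells, -0.39 to -0.02 in Th9 cells, 0.07 to 0.34 in Treg cells and 0.67 to 1.63 in Th2 cells. Of them, 4, 5, 5 and 4 were well above background on all 3 arrays in those groups, and Alas2 was so in none. The part of red cell RNA in the Hbb-bt values was not tested.

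The other 29 members have no symbol or no role stated here. Of these, 11 rose (37.9%, near the 33.2% of all genes), 4 fell (13.8%, against 30.7%) and 14 were not called. Oaf, the homologue of the fly gene out at first, had levels of 0.44, 0.70 and 0.51 in stimulated Th9 cells, against -4.63, -4.57 and -3.80 in Th9 cells, with -5.45, -5.76 and -6.71 in Treg cells and -2.95, -2.88 and -2.31 in Th2 cells. It rose by 4.88 ± 0.32 (SE, adjusted p = 4.37e-07) and passed the Th2 level by more than any member but Csf2. Cpne6, a calcium-dependent lipid-binding copine, rose by 1.72 ± 0.35 (SE, adjusted p = 0.00121), and Lgals7, a galectin of stratified epithelium, by 2.26 ± 0.48 (SE, adjusted p = 0.00168). Speer6-ps1 rose by 3.71 ± 0.28 (SE, adjusted p = 1.08e-06), and its probe may read the Speer family at large. Gipc2, a PDZ protein, had -7.94, -8.06 and -6.64 in stimulated Th9 cells, against -4.87, -4.65 and -4.50 in Th9 cells, was well above background on no stimulated array and was at least 2.35-fold lower (adjusted p = 2.64e-05). The normexp background correction, which draws dim values together, ended the calls of Gipc2 (-0.22, adjusted p = 0.12), Plxnb3 (-0.06, 0.732), Clec10a (-0.15, 0.36) and Zfp608 (D430007A19Rik) (-0.05, 0.715).

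**Figure D4:**
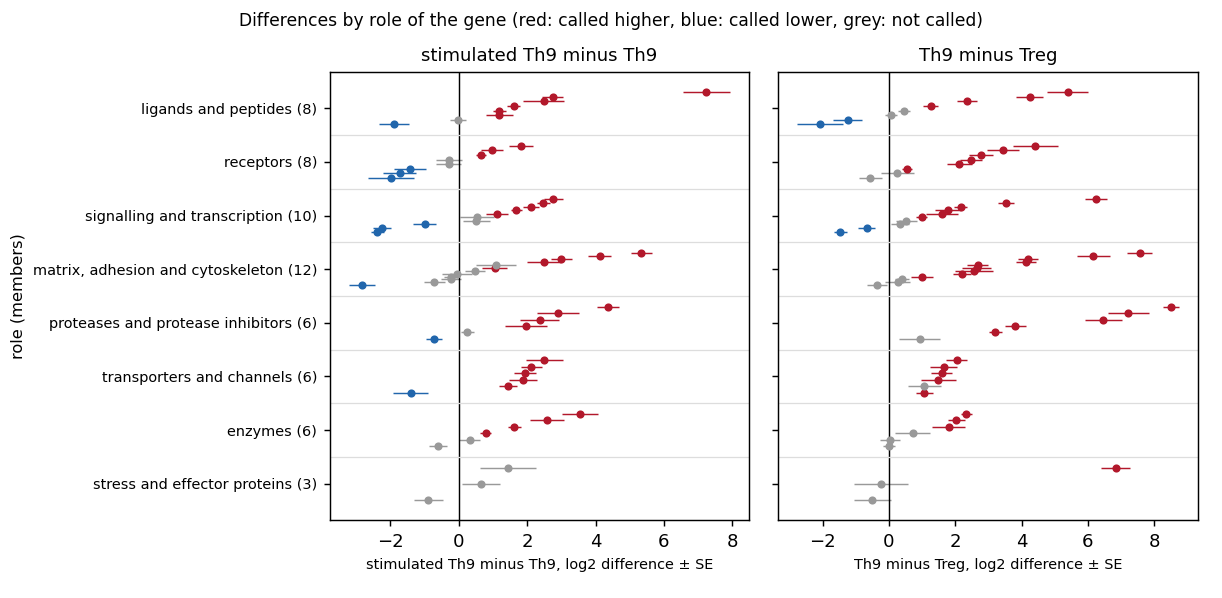
Log2 difference ± SE of each member with a stated role, for stimulated Th9 minus Th9 (left) and Th9 minus Treg (right), with red for called higher, blue for called lower and grey for not called. Proteases, transporters and ligands lie mostly to the right after anti-CD3 and receptors to both sides, and in Th9 minus Treg nearly all points lie to the right.

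Th9 and Treg cells both lay below Th2 by the rule, which did not set them against each other. Of the 88 members, Th9 exceeded Treg for 53 (60.2%, against 28.9% of all genes tested), 4 were lower (4.55%, against 35.4%) and 31 were not called. The median difference was 1.59 over the members and -0.11 over all genes. The rule used the arrays of both groups, and each difference from Th2 could be of any size above 1.5. Of all genes, 9.29% were called lower in Th9 than in Th2 and 29.4% lower in Treg than in Th2. The choice itself can therefore favour Th9 above Treg, and the p-values do not allow for it. Among these called members, arrays did not overlap for 50 of the 53 and 3 of the 4, which a call makes likely. Over all genes tested, called or not, the shares were 31% and 38.5%. In 18 of the 53 the Treg probe was well above background on no array. Under the slide block the counts were 38 higher, 35 of them among the 53, and 2 lower, 1 of them among the 4, and this fit links the groups through stimulated array 3 alone. Called higher both in Th9 minus Treg and in stimulated Th9 minus Th9 were 27 members. The share of all genes called higher in both was not computed, so this count cannot be set against it. B cell markers were higher in Treg cells, with 9 of 10 called lower in Th9 minus Treg, and their part in these differences was not tested.

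Serpinf1 gave the widest fitted difference, with levels of 2.65, 3.17 and 3.11 in Th9 cells, -5.84, -5.80 and -4.93 in Treg cells and 4.92, 4.75 and 4.50 in Th2 cells. Th9 cells stood 8.50 ± 0.24 (SE, adjusted p = 2.25e-09) above Treg cells and no array overlapped. The genes of this paragraph were picked as the largest increases among called members without overlap. Their p-values and lack of overlap therefore describe picked genes and add no support. Emilin2 followed at 7.56 ± 0.38 (SE, adjusted p = 6.88e-08) and Hspa1a at 6.84 ± 0.43 (SE, adjusted p = 3.34e-07). Hspa1a had 4.13, 3.24 and 2.49 in Th9 cells, -3.52, -3.37 and -3.77 in Treg cells and 5.61, 6.18 and 4.52 in Th2 cells. Among the stefins, Cstdc4 had -1.25, 0.40 and 0.00 in Th9 cells, -8.25, -7.39 and -6.84 in Treg cells and 2.19, 1.10 and 0.88 in Th2 cells, and Csta2 had 0.96, 2.46 and 2.09 in Th9 cells, -4.69, -4.97 and -4.24 in Treg cells and 4.22, 3.32 and 2.98 in Th2 cells. Cstdc4 was at least 52.2-fold above Treg in Th9 cells (adjusted p = 2.81e-06), and Csta2 differed by 6.47 ± 0.56 (SE, adjusted p = 3.17e-06). Cpne6 was at least 24-fold above Treg (adjusted p = 1.26e-07).

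Peptides and receptors showed the same direction in part. Nts was well above background on no Treg array and at least 19.6-fold higher in Th9 cells (adjusted p = 2.14e-05), and Grp at least 4.87-fold (adjusted p = 5.48e-06). Hbegf differed by 2.36 ± 0.31 (SE, adjusted p = 6.84e-05). Ltb4r1 differed by 4.41 ± 0.67 (SE, adjusted p = 0.000197), and the slide block gave 2.49 (adjusted p = 0.11). For Ptger3 the excess was at least 2.19-fold (adjusted p = 7.67e-05) and for Clec10a at least 2.72-fold (adjusted p = 9.28e-05). Genes of the cytoskeleton and of epithelium followed, with Rnd3 at 6.16 ± 0.50 (SE, adjusted p = 1.96e-06) and Lgals7 at 4.73 ± 0.48 (SE, adjusted p = 9.88e-06). Both probes were well above background on only 1 Treg array, so the sizes rest on dim values. With normexp they were 2.49 for Rnd3 and 1.98 for Lgals7. The excess of Mmp10 was at least 4.14-fold (adjusted p = 2.67e-06) and that of Cavin3 at least 6.91-fold (adjusted p = 8.41e-07). Nupr1 stood at 6.25 ± 0.34 (SE, adjusted p = 1.22e-07). With normexp the calls of Mmp10 (0.48, adjusted p = 0.0517), Ptger3 (0.18, 0.255) and Clec10a (0.30, 0.0708) were lost.

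Some members were called lower in Th9 minus Treg or were not called. Csf2 differed by -2.07 ± 0.69 (SE, adjusted p = 0.0225), lost its call without Th9 array 1 (-1.94, adjusted p = 0.0629), Treg array 1 (-1.86, 0.0706) or Treg array 2 (-1.88, 0.0687), was -1.10 (0.107) with normexp, and turned to 1.18 (0.129) under the slide block. Prok1 differed by -1.25 ± 0.43 (SE, adjusted p = 0.0262), a call lost without Th9 array 1 (-0.89, adjusted p = 0.105), Treg array 1 (-0.98, 0.0987) or Treg array 3 (-1.14, 0.0729), with normexp (-0.45, 0.0574) and with the slide block (-0.83, 0.459). The named probe of Zfp608 differed by -0.67 ± 0.26 (SE, adjusted p = 0.0426), was not called without any 1 of the 6 arrays (adjusted p = 0.055 to 0.138) or with quantile normalization (0.0854), and turned to 0.31 (0.423) with the slide block. Its second probe differed by -1.47 ± 0.20 (SE, adjusted p = 7.69e-05). For Osm the difference was 0.06 ± 0.19 (SE, adjusted p = 0.8), for Prxl2a 0.00 ± 0.19 (SE, adjusted p = 0.99) and for Shtn1 -0.36 ± 0.31 (SE, adjusted p = 0.326).

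Some smaller calls rested on single arrays. Ajuba differed by 0.99 ± 0.33 (SE, adjusted p = 0.0232), and was not called without Th9 array 1 or 3 (adjusted p = 0.0591 and 0.0587) or Treg array 1 or 2 (0.0954 and 0.0785). Fos differed by 1.60 ± 0.49 (SE, adjusted p = 0.0141), and was not called without Th9 array 3 (adjusted p = 0.0587), Treg array 2 (0.0597) or with the slide block (0.24). Slc7a8 differed by 1.49 ± 0.54 (SE, adjusted p = 0.0317), and was not called without Th9 array 3 (0.79, adjusted p = 0.0982), Treg array 2 (0.0858) or Treg array 3 (0.0797), with normexp (0.36, 0.291), with only the 6 arrays compared (0.0678), with no filter on dim probes (0.0512) or with the slide block (0.70, 0.614). Dusp6, at 0.99 ± 0.16 (SE, adjusted p = 0.000254), kept its call in each of these fits.

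Lists of related pathways give the setting, with members left out. Of all genes tested, 33.2% were higher and 30.7% lower after anti-CD3, and 28.9% were higher and 35.4% lower in Th9 minus Treg. Of 37 other early T cell receptor response genes, 25 were higher and 3 lower after anti-CD3, with a median of 2.27, while of the 2 members in that list Dusp6 rose and Fos was not called. Of 23 other T cell cytokines, 19 were higher and 4 lower, with a median of 3.23, and the members Csf2 and Osm both rose. Of 28 Th2 program genes, none of them members, 15 were higher and 6 lower after anti-CD3. Against Treg cells, 25 of these 28 were higher in Th9 cells. Against Th2 cells, 7 were higher and 4 lower in Th9 cells (7.79% and 9.29% of all genes), and 1 was higher and 20 lower in Treg cells (33.6% and 29.4%). Most genes of the Th2 program were therefore not called lower in Th9 than in Th2 cells. Th9 minus Th2 was called above 0 for 3 and below 0 for 2 of 21 genes of the IL-4 and STAT6 response, and above 0 for 14 and below 0 for 5 of 31 of the TGF-β response. Among other gene positions, Ifitm6 and B4galnt4, which are both members, are adjacent protein-coding genes on chromosome 7.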

How the data were processed

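RNA of 12 samples, 3 each of stimulated Th9, Th9, Treg and Th2 cultures, was hybridised to 1-colour Agilent arrays. The scanner files hold spot intensity, and per the file headers the authors extracted it with version 10.5.1.1 of Agilent's Feature Extraction. The deposited table holds the authors' log2 values per probe. Its scale was found by setting it against the scanner values, with correlations of at least 0.9996 on each array, and it served to choose the members only. From the scanner files, log2 processed signals were averaged per probe and each array's 75th percentile was subtracted. One probe per gene name was kept, the one with the highest mean over the 12 arrays. A gene was tested when that probe was well above background on at least 3 of 12 arrays. limma 3.58.1 in R 4.3.3 fitted 1 mean per group to all 12 arrays (residual df 8), with Benjamini-Hochberg adjustment over all genes tested. The design was tested on simulated data.

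Where a group was well above background on no array, the fold is a bound, the brighter group's mean over the dim group's mean of whichever is higher on each array, its own level or the lowest one well above background, and the adjusted p is that of the fit. The share of the gap closed uses values raised to that lowest signal. Number of arrays limits the precision. Symbols were updated through RefSeq accessions, and no per-sample column was left unmapped. The members and gene lists were chosen with earlier results of these data known. Genes named are the 8 largest increases and decreases after stimulation, the 10 widest margins below Th2, the 6 largest increases and decreases in Th9 minus Treg, the 3 nearest each side of the threshold and members of the lists. Further members were named by function, and roles were assigned, after their values were seen. Alternatives were background correction, normalization, the deposited values, the filter on dim probes, the slide or the replicate number as a block, the arrays fitted, and leaving out each array. The share without the floor was added after seeing the data. A few members are not reported here by name.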

Additional observations from a re-analysis of the deposited data

How the results depend on the processing

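The number of members followed the threshold. It was 219 with a difference of at least 1 and 46 with at least 2. With 1 array left out it stayed within 1.5 times of 88 and was lowest, at 77, without Th9 array 1. Members called higher after anti-CD3 numbered 40 to 42 with 1 array left out, and those called lower 9 to 17. The lower calls numbered 8 with normexp and 9 with the slide as a block, which rests on stimulated array 3 alone, against 14. Th9 minus Treg gave 49 to 55 higher and 1 to 3 lower with 1 array left out, and 2 lower both with normexp and with the slide as a block, against 4. Normexp gave 38 higher, and so did the slide block, against 53. At least 50% of the gap was closed by 38 to 42 members with 1 array left out and by 42 without the floor on dim values, an alternative added after seeing the data.

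Among results called in at least 1 of the 2 fits, those that reversed were Prok1 after anti-CD3 with normexp (0.02, adjusted p = 0.922), and in Th9 minus Treg Csf2 (1.18, 0.129), the named probe of Zfp608 (0.31, 0.423) and Prf1 (3.37, 0.00243) with the slide block and Prdm8 (-0.02, 0.869) with normexp. The cause was not tested. Of 1540 alternative values for 110 named results, 1397 kept direction and side of the threshold, 90 lost the call and 20 gained one. Another 28, from 15 results, turned sign while called in neither fit, with values of -1.02 to 0.25 after the turn. Among them were Col18a1, Hbb-bt and Nucb2 after anti-CD3 and Osm in Th9 minus Treg, each with 1 array left out. Normexp moved the median of all genes after anti-CD3 to 0.117, against 0.02.

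Replicate numbers do not pair the samples in the labels. Deviations of same-numbered arrays from their group means correlated at -0.018 to 0.41 over 18 pairs, against -0.297 to 0.127 over 36 other pairs. With the replicate block 45 members were higher and 18 lower after anti-CD3, and 54 higher and 3 lower in Th9 minus Treg. Dim signal limits Treg values most, where 22 probes were well above background on no array.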
